A study of Mus musculus with 11 samples.

Results

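Sinusoidal and endothelial identity genes were followed in the livers of E15.5 mouse embryos of 4 genotypes. They are the 10 genes *Pecam1*, *Cdh5*, *Kdr*, *Tek*, *Flt1*, *Lyve1*, *Stab1*, *Stab2*, *Clec4g* and *Fcgr2b*, found by matching the Ensembl identifiers in the 11 count tables to the GRCm38 annotation. All 10 were listed once, of 52636 genes listed, and all 10 passed the filter on low counts, which left 17243 genes for testing. Liver sinusoidal endothelial cells line the capillaries of the liver, have open pores and lack a continuous basement membrane. They clear waste proteins and immune complexes from blood through scavenger, lectin and Fc receptors, and carry the VEGF and angiopoietin receptors and junction proteins found on most endothelium. Caspase-8 holds back necroptosis, a lytic death driven by RIPK3 and MLKL that TNF receptor 1 (TNFR1) can start, and endothelium is among the tissues affected when caspase-8 is lost.

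RNA of the whole fetal liver was sequenced of 11 single embryos: 3 were WT, 2 were labeled Tnfr1-/-, 3 were Casp8-/-Tnfr1-/- and 3 were Casp8-/-Mlkl-/-. All were at E15.5 and untreated. The null alleles were germline, so that by their labels Casp8-/-Mlkl-/- livers shared the loss of caspase-8 with Casp8-/-Tnfr1-/- livers and also lacked MLKL, and Tnfr1-/- livers shared the loss of TNFR1 with Casp8-/-Tnfr1-/- livers. No endothelial cells were isolated: in RNA of a whole liver, fewer cells of a type and less RNA per cell cannot be told apart. The labels number the livers within a genotype and do not give litters or sexes.

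Between 23129212 and 35819339 exonic reads were counted per liver. Levels are given as CPM, the counts scaled to TMM-adjusted library size. Casp8-/-Tnfr1-/- replicate 3 stood apart from the other 10 livers: the Pearson correlation of log2 CPM was 0.840 to 0.891 with any other liver, and at least 0.949 among the other 10. Here 10 striated muscle genes together gave 1501 CPM, where no other liver exceeded 33.4 CPM, and *Xist*, the RNA of the inactive X chromosome, was at 3407 CPM against at most 0.569 CPM elsewhere. Results are therefore given with and without this liver. *Casp8* was at 7.82 to 21.9 CPM in the 6 livers labeled Casp8-/-, of which replicate 3 was the highest, and at 27.7 CPM or more in the others. *Mlkl* was at 0.729 to 1.22 CPM in the Casp8-/-Mlkl-/- livers and at 3.68 CPM or more elsewhere. *Tnfrsf1a*, which encodes TNFR1, was at 49.8 and 50.5 CPM in the livers labeled Tnfr1-/-, within the WT range of 47.1 to 53.4 CPM, so that counts over the whole gene did not check this label.

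Every library held the endothelial markers. The level per kilobase of gene model in WT (CPM per kb, mean ± SD, n = 3) was highest for *Lyve1*, the hyaluronan receptor, at 25.4 ± 1.76. It was followed by *Cdh5* (VE-cadherin, the junction protein of endothelium) at 18.3 ± 1.86, and by *Stab1* at 13.8 ± 1.89 and *Stab2* at 12.5 ± 0.954, whose WT livers overlapped. *Kdr* (VEGFR2) was at 10.1 ± 0.717, *Pecam1* (CD31) at 7.39 ± 0.231 and *Tek* (the angiopoietin receptor TIE2) at 4.37 ± 0.232 CPM per kb. At the lower end were *Clec4g* at 3.15 ± 0.737, *Flt1* (VEGFR1) at 1.64 ± 0.175 and *Fcgr2b*, the inhibitory Fc receptor, at 1.53 ± 0.0900 CPM per kb, of which the last pair overlapped. The lowest count behind a member in any liver was 135 reads, for *Fcgr2b*.

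The 10 genes did not move as a block. Compared to WT, *Fcgr2b* and *Pecam1* were higher in Casp8-/-Tnfr1-/- livers, and *Flt1* was higher too without replicate 3 and by DESeq2 with all livers. *Stab2*, a scavenger receptor of sinusoids, was lower in the other Casp8-/-Tnfr1-/- livers than in Casp8-/-Mlkl-/- livers. No difference was called for *Cdh5*, *Kdr*, *Tek*, *Lyve1*, *Stab1* or *Clec4g* by edgeR in any comparison, with or without replicate 3.

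**Figure D1:**
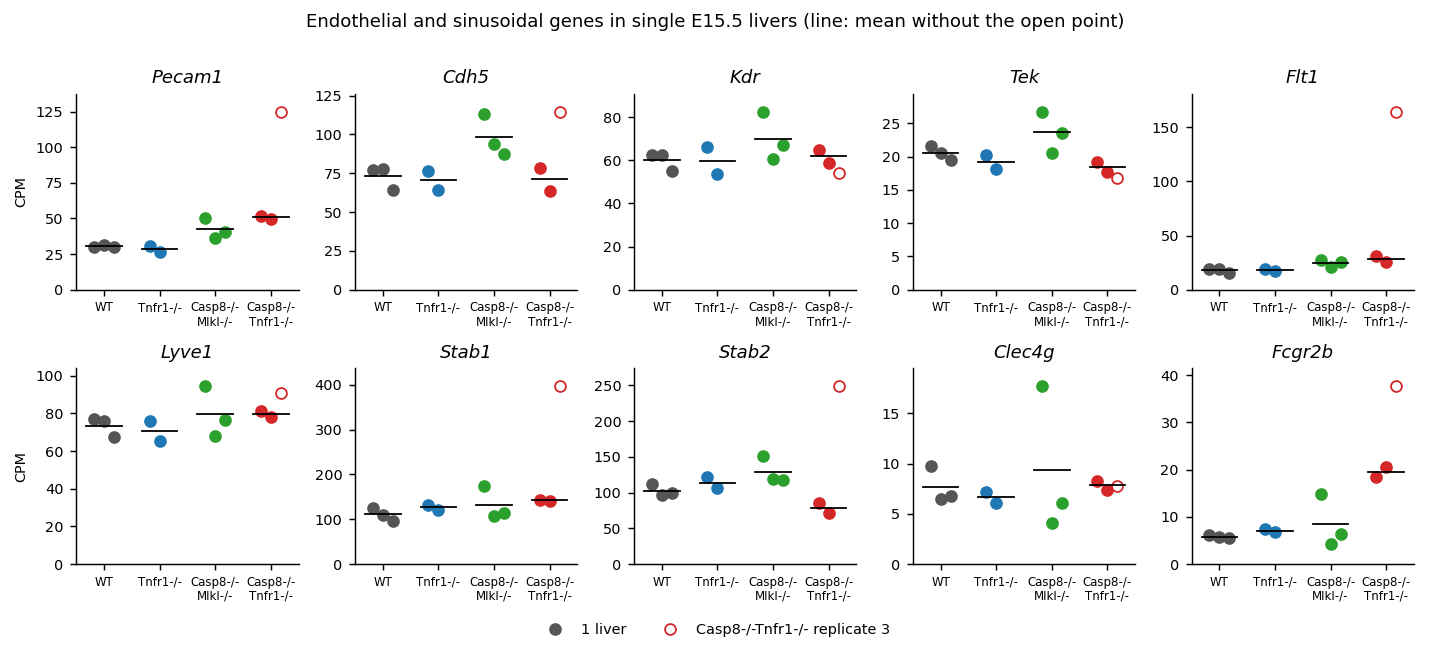
Levels of the 10 genes in CPM (vertical axes, linear, from 0) in each of the 11 livers by genotype. A filled point is a liver, the open point is Casp8-/-Tnfr1-/- replicate 3, and the line is the mean of the filled points. Replicate 3 is the highest liver for *Pecam1*, *Cdh5*, *Flt1*, *Stab1*, *Stab2* and *Fcgr2b* and the lowest for *Tek*, and the other Casp8-/-Tnfr1-/- livers are the lowest for *Stab2*.

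The promoters of *Fcgr2b* and of the receptor pairs that parted, *Flt1* with *Kdr* and *Stab1* with *Stab2*, are shown because the results below turn on these genes. The RefSeq promoter table (GRCm38.p6) matched 7 of the 10 genes; *Pecam1*, *Cdh5* and *Lyve1* were not matched. The 250 bases before the RefSeq start, which can lie inside the gene's outer bounds, are printed 5′ to 3′ on the strand of the gene, which is minus for all of the genes shown: *Flt1* (chr5:147726012-147726261), *Kdr* (chr5:75978456-75978705), *Stab1* (chr14:31168642-31168891), *Stab2* (chr10:87007943-87008192) and *Fcgr2b* (chr1:170976072-170976321). Capitals mark hexamers, on either strand, of GGAA with A or C before it and A or G after it, the core bound by ETS factors, a family that includes ERG and FLI1 of endothelium.
Flt1: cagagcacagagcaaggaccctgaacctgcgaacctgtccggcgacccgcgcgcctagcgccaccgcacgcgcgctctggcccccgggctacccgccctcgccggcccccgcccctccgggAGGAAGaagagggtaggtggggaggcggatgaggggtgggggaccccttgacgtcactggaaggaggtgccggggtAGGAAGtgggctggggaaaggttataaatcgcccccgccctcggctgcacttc
Kdr: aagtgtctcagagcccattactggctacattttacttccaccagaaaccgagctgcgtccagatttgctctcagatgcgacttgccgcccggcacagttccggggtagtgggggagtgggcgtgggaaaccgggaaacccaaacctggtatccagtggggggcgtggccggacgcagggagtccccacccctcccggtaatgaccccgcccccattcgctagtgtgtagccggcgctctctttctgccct
Stab1: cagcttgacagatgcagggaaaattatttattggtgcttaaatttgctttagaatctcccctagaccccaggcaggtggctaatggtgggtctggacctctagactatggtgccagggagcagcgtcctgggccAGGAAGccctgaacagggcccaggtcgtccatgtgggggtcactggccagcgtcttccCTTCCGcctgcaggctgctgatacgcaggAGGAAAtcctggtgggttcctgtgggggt
Stab2: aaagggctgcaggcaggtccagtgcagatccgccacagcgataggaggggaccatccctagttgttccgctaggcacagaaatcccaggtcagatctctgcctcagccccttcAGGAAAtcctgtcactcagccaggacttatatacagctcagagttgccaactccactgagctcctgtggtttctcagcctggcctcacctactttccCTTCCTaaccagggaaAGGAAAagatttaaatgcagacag
Fcgr2b: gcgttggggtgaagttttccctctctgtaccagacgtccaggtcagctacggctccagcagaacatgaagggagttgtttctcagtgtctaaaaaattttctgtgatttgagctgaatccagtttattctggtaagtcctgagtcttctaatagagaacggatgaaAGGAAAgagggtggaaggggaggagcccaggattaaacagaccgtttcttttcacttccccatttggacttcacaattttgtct

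*Stab1* and *Stab2* held 3 such hexamers each, *Flt1* 2, *Fcgr2b* 1, and *Kdr* and *Tek* 0 in this window; *Clec4g* held 4, of which 2 overlap. Of 32851 promoter windows of the same length, 57.2% held at least 1 ETS hexamer. The GATA hexamer, GATA with A or T before it and A or G after it, was found in *Clec4g* alone of the 7 and in 26.5% of all windows. The interferon-stimulated response element and the STAT element (TTCNNNGAA), in 2.98% and 7.02% of all windows, were not found in these windows of the 7 genes. These are matches of letters, and binding was not measured.

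*Fcgr2b* (chr1:170958617-170976547, minus strand, GRCm38) encodes the inhibitory receptor for IgG, which sinusoidal endothelium uses to remove small immune complexes and which B cells and macrophages also carry. In WT livers 1 to 3 it was at 6.22, 5.66 and 5.60 CPM, and in livers 1 and 2 labeled Tnfr1-/- at 7.35 and 6.72 CPM. In Casp8-/-Mlkl-/- livers it was at 14.8, 4.33 and 6.30 CPM. In Casp8-/-Tnfr1-/- livers it was at 18.5, 20.5 and 37.7 CPM. All 3 Casp8-/-Tnfr1-/- livers lay above all 8 others, and *Fcgr2b* was the only member to do so. Of all genes tested, 7.43% lay above in this way and 3.32% below. Casp8-/-Tnfr1-/- exceeded WT by 2.13 ± 0.44 (SE) on the log2 scale, a 4.38-fold difference (edgeR quasi-likelihood test, adjusted p = 0.0214), and without replicate 3 it was 1.75 ± 0.41 (adjusted p = 0.0267). Against Tnfr1-/- it was 1.86 ± 0.50 and against Casp8-/-Mlkl-/- 1.59 ± 0.43 (edgeR, adjusted p = 0.102 and 0.115), which did not pass the threshold of 0.05, nor did they without replicate 3 (1.47 and 1.21, adjusted p = 0.111 and 0.190). The call against WT was lost without any 1 WT liver (edgeR, adjusted p from 0.0866 to 0.108). The liver Casp8-/-Mlkl-/- replicate 1, at 14.8 CPM, was the nearest to the Casp8-/-Tnfr1-/- livers; without it, *Fcgr2b* passed against both (log2 fold changes of 1.86 and 2.27, adjusted p = 0.0173 and 0.00980).

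Other cell types that carry this receptor were read from their markers in the same livers. A list of 8 B lineage genes summed to 14.0 to 16.3 CPM in Casp8-/-Tnfr1-/- livers, below the 17.7 to 101 CPM of the other 8 livers. A list of 16 macrophage genes summed to 1105 to 1166 CPM in Casp8-/-Tnfr1-/- livers, above the 719 to 984 CPM of WT and within the 940 to 2320 CPM of Casp8-/-Mlkl-/-. Its members differed in direction: compared to WT, *Cd68* and *Lyz2*, a lysosomal protein and lysozyme of many myeloid cells, rose by 0.90 and 1.55 on the log2 scale, and the Kupffer cell lectin *Clec4f* and the scavenger receptor *Marco* fell by 4.23 and 1.51 (edgeR, adjusted p = 0.0293, 0.0403, 0.0436 and 0.0495). The other 12 macrophage genes were not called. In this comparison 5.8% of all genes were called, and 9.83% without replicate 3. Without replicate 3, *Cd68* alone of the 16 was called against WT (log2 fold change of 0.83, adjusted p = 0.0313). The part of these cells in the *Fcgr2b* difference was not tested. Sequence is also shared: 6.95% of the 50-base stretches of *Fcgr2b* occur in another gene, chiefly *Fcgr3*, the highest share of the 10. The deposited counts hold uniquely mapped reads only, and the effect of shared sequence on them was not tested. *Fcgr3* was at 45.5, 50.9 and 111 CPM in Casp8-/-Tnfr1-/- livers and at 19.2 to 44.4 CPM in the other 8.

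*Pecam1* (chr11:106654217-106750628, minus strand) encodes CD31, an adhesion molecule of endothelial junctions that platelets and leukocytes also carry. It was at 30.3, 31.6 and 29.7 CPM in WT livers and at 30.5 and 26.4 CPM in the livers labeled Tnfr1-/-. Casp8-/-Mlkl-/- livers had 50.1, 36.3 and 40.8 CPM. Casp8-/-Tnfr1-/- livers had 51.7, 49.8 and 125 CPM. Casp8-/-Tnfr1-/- livers lay above WT and Tnfr1-/- livers and met the highest Casp8-/-Mlkl-/- liver, which in turn lay with its group above WT. The difference from WT was 1.30 ± 0.32 on the log2 scale, or 2.47-fold (edgeR, adjusted p = 0.0449), and fell to 0.74 ± 0.13, or 1.67-fold, without replicate 3 (adjusted p = 0.00891). With replicate 3 this call was near the threshold: it was lost with limma-voom (adjusted p = 0.0731), with only both genotypes fitted (0.150) and with the replicate number as a block (0.0852), and in 7 of the 11 edgeR fits that left out 1 liver, those without a WT liver, a Tnfr1-/- liver or Casp8-/-Mlkl-/- replicate 2 or 3 (0.0613 to 0.167). Against Tnfr1-/- the value was 1.40 ± 0.37 (adjusted p = 0.0974), and without replicate 3 it was 0.83 ± 0.15, which passed the edgeR test (adjusted p = 0.0141). Against Casp8-/-Mlkl-/- it was 0.83 ± 0.32 and 0.26 ± 0.13 without replicate 3 (adjusted p = 0.264 and 0.436).

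Of the other junction gene, *Cdh5* (chr8:104101625-104144511, plus strand), WT livers held 77.1, 77.5 and 64.5 CPM and livers labeled Tnfr1-/- 76.7 and 64.0 CPM. It was at 113, 94.1 and 87.3 CPM in Casp8-/-Mlkl-/- livers, all above WT. It was at 78.4, 63.7 and 115 CPM in Casp8-/-Tnfr1-/- livers, which spanned the range of the other genotypes. The log2 fold change of Casp8-/-Tnfr1-/- against WT was 0.23 ± 0.21 and, without replicate 3, -0.03 ± 0.15 (edgeR, adjusted p = 0.510 and 0.928).

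The VEGF receptors differed from each other. *Flt1* (chr5:147561604-147726011, minus strand) encodes VEGFR1, which binds VEGF-A and PlGF tightly and in its soluble form holds VEGF-A away from VEGFR2. WT livers had 19.2, 19.0 and 15.8 CPM and livers labeled Tnfr1-/- 19.0 and 16.9 CPM. Casp8-/-Mlkl-/- livers had 27.5, 20.9 and 26.0 CPM. Casp8-/-Tnfr1-/- livers had 31.0, 25.8 and 164 CPM. All Casp8-/-Tnfr1-/- livers lay above WT and Tnfr1-/- livers, with replicate 3 far above the others, and they overlapped with Casp8-/-Mlkl-/- livers. Against WT the difference was 2.03 ± 0.60 on the log2 scale (edgeR, adjusted p = 0.0793), and without replicate 3 a smaller difference with a smaller error passed the test, 0.66 ± 0.16, or 1.58-fold (adjusted p = 0.0277). With all livers *Flt1* was called by DESeq2 (adjusted p = 0.00713), by limma-voom with quality weights per library (adjusted p = 0.00248) and by edgeR without the filter on low counts (adjusted p = 0.0365), but not by limma-voom without weights (adjusted p = 0.201). Leaving out Casp8-/-Tnfr1-/- replicate 1 or 2 also gave a call (edgeR, adjusted p = 0.0372 and 0.0278). In the replicate 3 liver the VEGFR1 ligands were also far from the rest: *Pgf*, which encodes PlGF, was at 115 CPM against at most 1.44 CPM in any other liver, and *Vegfa* at 922 CPM against at most 126 CPM. *Kdr* (chr5:75932827-75978458, minus strand), the main signaling receptor for VEGF-A, was at 64.9, 58.8 and 54.2 CPM in Casp8-/-Tnfr1-/- livers. WT and Tnfr1-/- livers held 53.6 to 66.1 CPM and Casp8-/-Mlkl-/- livers 60.5 to 82.4 CPM. Casp8-/-Tnfr1-/- livers lay within the range of WT and Tnfr1-/- livers for *Kdr*, with a log2 fold change against WT of -0.02 ± 0.15 and 0.05 ± 0.15 without replicate 3.

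*Tek* (chr4:94739289-94874976, plus strand), which keeps vessels quiescent when bound by angiopoietin-1, was at 19.2, 17.6 and 16.7 CPM in Casp8-/-Tnfr1-/- livers. WT and Tnfr1-/- livers had 18.2 to 21.6 CPM and Casp8-/-Mlkl-/- livers 20.6 to 26.7 CPM, so that the Casp8-/-Tnfr1-/- livers lay below Casp8-/-Mlkl-/- livers and narrowly below WT (19.4 to 21.6 CPM), and overlapped with Tnfr1-/-. The log2 fold change against Casp8-/-Mlkl-/- was -0.40 ± 0.14 (edgeR, adjusted p = 0.233).

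The stabilins, large scavenger receptors of sinusoidal endothelium that take up hyaluronan, modified lipoproteins and matrix fragments, parted from each other in the Casp8-/-Tnfr1-/- livers. *Stab2* (chr10:86841198-87008025, minus strand) was at 112, 96.6 and 99.9 CPM in WT livers and at 122 and 106 CPM in livers labeled Tnfr1-/-. It was at 152, 119 and 117 CPM in Casp8-/-Mlkl-/- livers. It was at 85.6, 71.3 and 249 CPM in Casp8-/-Tnfr1-/- livers. Replicates 1 and 2 were the lowest of all 11 livers and replicate 3 the highest. With replicate 3 the log2 fold change against Casp8-/-Mlkl-/- was 0.06 ± 0.39 (edgeR, adjusted p = 0.940), and without it -0.72 ± 0.14, or 0.609-fold (adjusted p = 0.0334). The direction turned against the other genotypes too, from 0.40 to -0.38 against WT and from 0.25 to -0.54 against Tnfr1-/-, where the values without replicate 3 did not pass (adjusted p = 0.139 and 0.0900). Without replicate 3, 10.6% of all genes had both other Casp8-/-Tnfr1-/- livers above all 8 others and 6% had both below, and *Stab2* was the only member among the latter.

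*Stab1* (chr14:31139013-31168641, minus strand), which macrophages also express, was at 126, 110 and 95.6 CPM in WT livers, at 132 and 122 CPM in livers labeled Tnfr1-/- and at 173, 108 and 113 CPM in Casp8-/-Mlkl-/- livers. Casp8-/-Tnfr1-/- livers had 143, 141 and 397 CPM. They lay above WT and Tnfr1-/- livers, and 2 of them below the highest Casp8-/-Mlkl-/- liver. Against WT the difference was 1.04 ± 0.38 on the log2 scale (edgeR, adjusted p = 0.134), and 0.37 ± 0.20 without replicate 3 (adjusted p = 0.296). The gene shares 112 exonic bases, 1.09% of its exons, with *Nt5dc2* on the opposite strand.

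*Lyve1* (chr7:110850607-110863239, minus strand) and *Clec4g* (chr8:3707064-3720651, minus strand) complete the sinusoidal genes. *Lyve1* was at 81.4, 78.3 and 90.8 CPM in Casp8-/-Tnfr1-/- livers, at 65.3 to 76.9 CPM in WT and Tnfr1-/- livers and at 68.1 to 94.4 CPM in Casp8-/-Mlkl-/- livers. Casp8-/-Tnfr1-/- livers lay above WT and within the range of Casp8-/-Mlkl-/-, with a difference from WT of 0.18 ± 0.15 on the log2 scale (edgeR, adjusted p = 0.451). *Clec4g*, which encodes the lectin LSECtin, was at 8.29, 7.36 and 7.75 CPM in Casp8-/-Tnfr1-/- livers, inside the 6.49 to 9.71 CPM of WT. It spread most in Casp8-/-Mlkl-/- livers, at 17.7, 4.12 and 6.11 CPM. The high value came from Casp8-/-Mlkl-/- replicate 1, which was also the highest of its group for each of the other 9 genes; its 16 macrophage genes summed to 2320 CPM and its 10 hepatocyte genes to 237747 CPM, the highest of the 11 livers for both lists.

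Counted over the comparisons, 2 of the 10 genes were called above WT in Casp8-/-Tnfr1-/- livers, a comparison in which 5.8% of all genes were called, and 3 were called without replicate 3, where 9.83% were. The median log2 fold change of the 10 was 0.31 (0.09 without replicate 3) beside -0.00 over all genes. Against Tnfr1-/- none was called (2.17% of all genes) and 1 without replicate 3 (5.19%). Against Casp8-/-Mlkl-/- none was called (1.65%) and 1, *Stab2*, was lower without replicate 3 (3.17%). At an unadjusted edgeR p under 0.05 there were 3 members against Tnfr1-/-, where 16.3% of all genes were, and 4 against Casp8-/-Mlkl-/-, where 15.3% were. DESeq2 called more genes in each comparison: 3 members against WT (*Flt1* beside *Pecam1* and *Fcgr2b*; 14% of all genes), 3 against Tnfr1-/- (7.5%) and 1 against Casp8-/-Mlkl-/- (5.56%). These 3 comparisons share the Casp8-/-Tnfr1-/- livers, so they do not repeat each other independently. In the edgeR test of any difference among the 4 genotypes, which called 3.6% of all genes, *Fcgr2b* was the only member called (adjusted p = 0.0457). Without replicate 3, where the test called 5.67% of all genes, *Pecam1* was the only one (adjusted p = 0.0179) and *Fcgr2b* had an adjusted p of 0.0912.

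**Figure D2:**
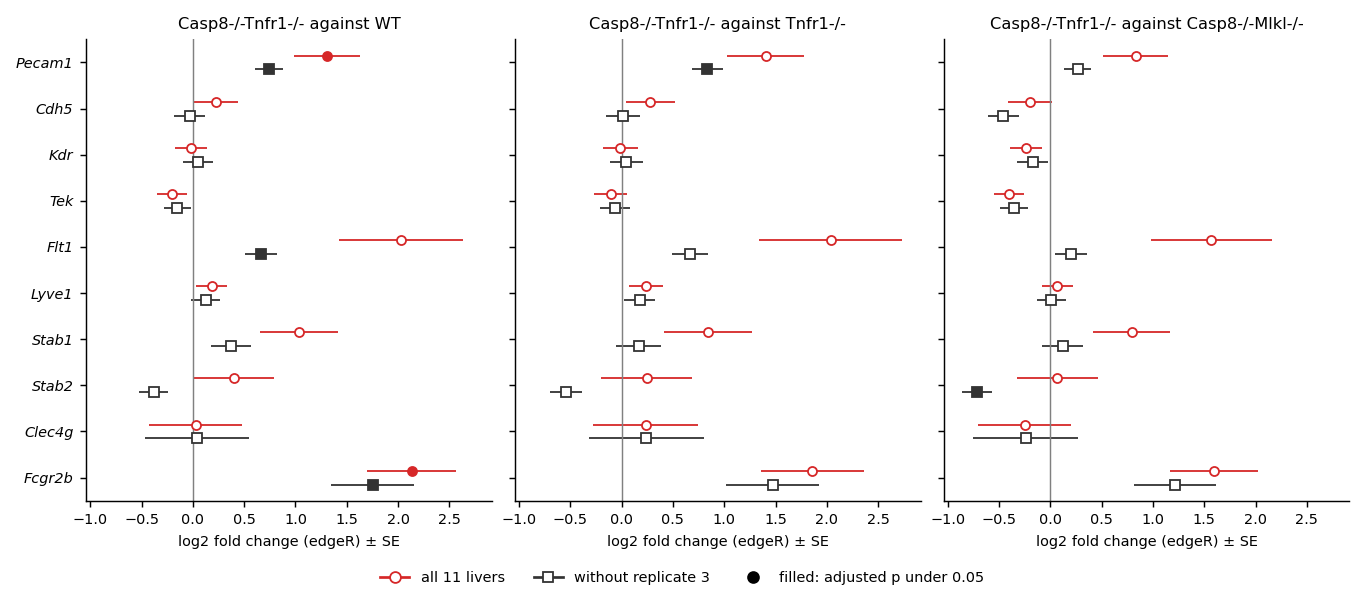
Log2 fold changes of the 10 genes in Casp8-/-Tnfr1-/- livers against each other genotype (horizontal axis, edgeR, bars are ± SE), with all 11 livers (circles) and without Casp8-/-Tnfr1-/- replicate 3 (squares). Filled symbols passed an adjusted p of 0.05: *Pecam1* and *Fcgr2b* against WT, and without replicate 3 also *Flt1* against WT, *Pecam1* against Tnfr1-/- and *Stab2*, at -0.72, against Casp8-/-Mlkl-/-.

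Each gene was also compared between the 3 Casp8-/-Tnfr1-/- livers and the other 8 on log2 CPM, by permuting the livers over every split of 3 against 8 (exact test, two-sided), which cannot give a p below 0.00606. *Fcgr2b* reached that p, and *Pecam1* (p = 0.0121), *Flt1* (p = 0.0182), *Stab1* (p = 0.0364) and, lower, *Tek* (p = 0.0424) were under 0.05 by the same exact test, 5 of 10 where 27.3% of all genes were. None passed after adjustment over all genes (adjusted p from 0.0612 to 0.166). The smallest possible p itself had an adjusted p of 0.0612, so that no gene of the table passed. The adjusted values therefore say nothing particular about the members. Without replicate 3 the exact test over 45 splits, which cannot go below p = 0.0222, gave that p for *Fcgr2b* and *Stab2* and p = 0.0444 for *Pecam1*. After adjustment over all genes these exact p values became 0.183 and 0.264. The share of all genes under 0.05 in this test was not computed, so this count has no background to be read against.

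Between the other genotypes no member was called. In Casp8-/-Mlkl-/- against WT, where 0.0058% of all genes (1 gene) were called, all 10 log2 fold changes were positive, between 0.12 for *Lyve1* and 0.54 for *Fcgr2b*, with a median of 0.31 beside 0.03 over all genes, and 0 of 10 had an unadjusted edgeR p under 0.05, where 5.63% of all genes had. The common direction rested partly on 1 liver. Without Casp8-/-Mlkl-/- replicate 1, *Lyve1* (-0.0225), *Clec4g* (-0.58) and *Fcgr2b* (-0.13) were negative in edgeR, and the other members stayed positive. With quality weights *Lyve1*, *Clec4g* and *Fcgr2b* were negative too. The share of all genes with a positive value was not computed. DESeq2 and limma-voom called 0 members, and limma-voom with quality weights called *Pecam1* and 6.04% of all genes. With replicate 3 of Casp8-/-Tnfr1-/- left out of the fit, which narrowed the shared spread, 4 of 10 had an unadjusted p under 0.05 (*Pecam1*, *Cdh5*, *Flt1* and *Stab2*), beside 16.8% of all genes, and again none was called, beside 0.159% of all genes. In the livers labeled Tnfr1-/- against WT the log2 fold changes lay between -0.21 and 0.27, none of the 10 genes and 0% of all genes were called, and no member had an unadjusted edgeR p under 0.05, beside 1.08% of all genes; DESeq2, limma-voom and limma-voom with quality weights called none either.

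Ratios of members within a liver do not depend on how the libraries were scaled; they were chosen after the values had been seen and are given without a test. Of 45 pairs of members, 21 (46.7%) had ratios that placed all 3 Casp8-/-Tnfr1-/- livers on 1 side of all 8 others. The share among pairs of all tested genes was not computed, so this count has no background to be read against. Pairs that share a gene are not independent, and the pairs described below were taken from these 21. The ratio of *Stab1* to *Stab2* counts per kb was 0.934 to 1.18 in the 8 others and 1.72, 2.04 and 1.64 in the Casp8-/-Tnfr1-/- livers. Here replicate 3, which stood apart in the level of both genes, lay close to its group. The ratio of *Pecam1* to *Cdh5* was 0.373 to 0.451 in the others and 0.637, 0.756 and 1.05 in Casp8-/-Tnfr1-/- livers. The ratio of *Flt1* to *Kdr* was 0.258, 0.238 and 1.64 in Casp8-/-Tnfr1-/- livers, beside 0.155 to 0.170 in WT and Tnfr1-/- livers and 0.181 to 0.211 in Casp8-/-Mlkl-/- livers, with replicate 3 far above. The ratio of *Fcgr2b* to *Lyve1* was 0.0482 to 0.119 in the others and 0.173, 0.199 and 0.315 in Casp8-/-Tnfr1-/- livers, and *Fcgr2b* stood apart in this way against 8 of the 9 other members, *Flt1* being the exception.

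**Figure D3:**
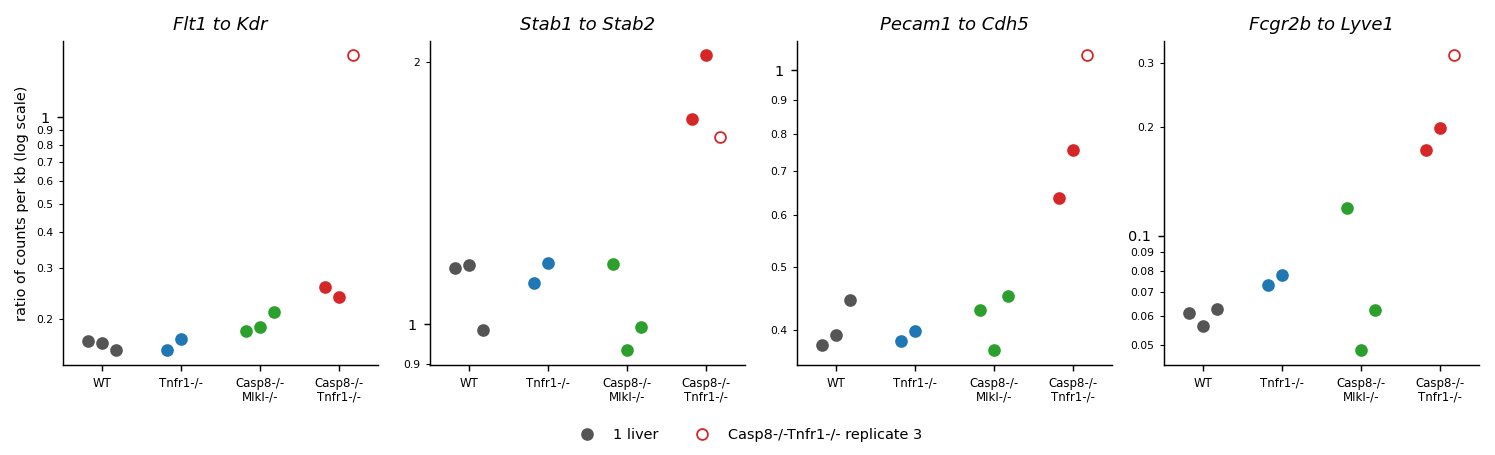
Ratios of counts per kb of 4 pairs of genes in each liver (vertical axes, log scale), by genotype. Filled points are livers and the open point is Casp8-/-Tnfr1-/- replicate 3. The pairs were chosen after the values had been seen. In all 4 pairs the Casp8-/-Tnfr1-/- livers lie above the other 8, and for *Stab1* to *Stab2* replicate 3, at 1.64, is the lowest of its group.

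Further endothelial genes were read from lists of known markers. Of 27 other pan-endothelial genes 1 was called higher against WT, *Ecscr*, an endothelial surface protein that regulates migration, at 7.56, 7.77 and 29.2 CPM in Casp8-/-Tnfr1-/- livers and 3.39 to 4.03 CPM in WT (log2 fold change of 1.96 ± 0.48, edgeR, adjusted p = 0.0420). It remained called without replicate 3 (1.02 ± 0.16, adjusted p = 0.00450), together with the adhesion molecule *Icam2* (0.60 ± 0.15, adjusted p = 0.0347). Against Tnfr1-/-, *Ecscr* (0.91) and the diaphragm protein *Plvap* (0.61) were called without replicate 3 (edgeR, adjusted p = 0.0187 and 0.0432), and against Casp8-/-Mlkl-/- none of the 27 was called. The list median against WT was 0.78 with replicate 3 and 0.24 without it, beside -0.00 over all genes in both fits. Of all genes, 5.8% were called against WT, 2.17% against Tnfr1-/- and 1.65% against Casp8-/-Mlkl-/-. Without replicate 3 these shares were 9.83%, 5.19% and 3.17%. They are also the background of the lists below.

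Of 19 other sinusoidal genes 18 were tested and 1 was called with all 11 livers, *Fcna*, which encodes ficolin A, a soluble lectin of the complement system that macrophages also make. It was at 13.8, 11.8 and 9.23 CPM in Casp8-/-Tnfr1-/- livers and at 36.1 to 76.7 CPM in the other 8, without overlap. Its log2 fold change was -2.09 ± 0.29 against WT, -2.07 ± 0.31 against Tnfr1-/- and -2.14 ± 0.29 against Casp8-/-Mlkl-/- (edgeR, adjusted p = 0.00333, 0.00847 and 0.00604), and it was called in all 3 without replicate 3. Without replicate 3, *Ehd3*, an endocytic recycling protein, was also lower against each genotype, at 74.7 and 69.2 CPM beside 92.3 to 110 CPM in the other 8 livers (-0.45, -0.48 and -0.53, edgeR, adjusted p = 0.0158, 0.0243 and 0.0156). The water channel *Aqp1*, which erythroid cells also carry, was lower against WT and Tnfr1-/- (-0.66 and -0.72, adjusted p = 0.0263 and 0.0377). In replicate 3 *Ehd3* was at 30.1 CPM and *Aqp1* at 62.4 CPM, lower still, while 14 of the 18 log2 fold changes against WT were positive with this liver in the fit and 13 without it. The median of the 18 against WT was 0.44, and 0.24 without replicate 3, beside -0.00 over all genes in both fits. Of all genes, 5.8% were called against WT, and 9.83% without replicate 3.

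**Figure D4:**
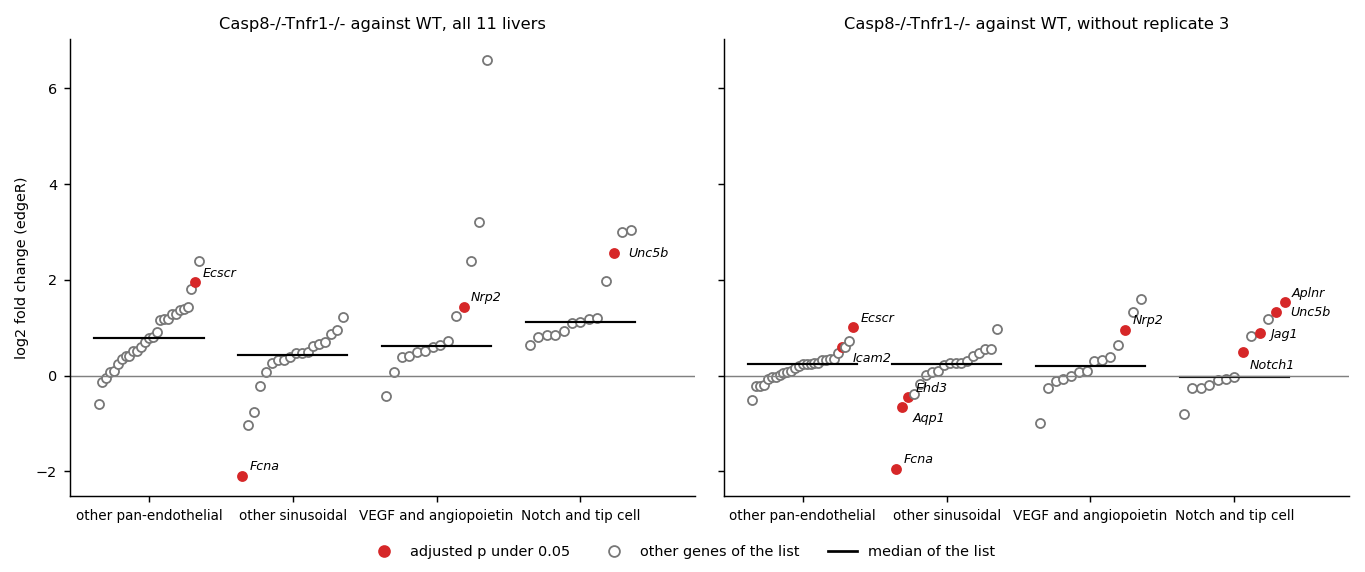
Log2 fold changes of Casp8-/-Tnfr1-/- against WT livers (vertical axis, edgeR) for the genes of 4 lists in order of size, with all 11 livers (left) and without Casp8-/-Tnfr1-/- replicate 3 (right). Filled and named points passed an adjusted p of 0.05, and bars are list medians; without replicate 3 the median of the Notch and tip cell list falls from 1.13 to -0.03 while *Fcna* is at -2.09 and -1.94.

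Of 14 genes of the VEGF and angiopoietin axis, which share *Ptprb*, *Tie1* and *Flt4* with the lists above, 1 was called against WT, *Nrp2*, a co-receptor for VEGF-C and semaphorins. It was at 23.5, 20.3 and 48.2 CPM in Casp8-/-Tnfr1-/- livers, at 8.95 to 13.5 CPM in WT and Tnfr1-/- livers and at 19.9 to 22.9 CPM in Casp8-/-Mlkl-/- livers, so that both genotypes that lack caspase-8 lay above both that have it. The difference from WT was 1.44 ± 0.32, and 0.96 ± 0.19 without replicate 3 (log2 scale, edgeR, adjusted p = 0.0293 and 0.0145). The list median was 0.61, and 0.21 without replicate 3, beside -0.00 over all genes in both fits. Of all genes, 5.8% were called against WT, and 9.83% without replicate 3.

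Of 13 Notch and tip cell genes *Unc5b*, the netrin receptor of sprouting endothelium, was called against WT (2.56 ± 0.59, edgeR, adjusted p = 0.0335), at 13.7, 16.4 and 76.7 CPM in Casp8-/-Tnfr1-/- livers and 4.57 to 7.40 CPM in the other 8. Without replicate 3 it was called against each genotype (1.33, 1.24 and 1.11), as was the apelin receptor *Aplnr* (1.54, 1.77 and 0.87), with edgeR adjusted p between 0.000755 and 0.0275. *Aplnr* was at 18.5 CPM in Casp8-/-Tnfr1-/- replicate 1, at 15.03 CPM in replicate 2, at 6.55 CPM in replicate 3 and at 4.52 to 10.2 CPM in the other 8. *Notch1* and the Notch ligand *Jag1* were called against WT without replicate 3 (0.49 and 0.90, edgeR, adjusted p = 0.0238 and 0.0250). The other 9 of the 13 were not called. Of all genes, 5.8% were called against WT, and 9.83% without replicate 3. Of 6 lymphatic endothelial genes 5 were tested and 0 were called in any comparison with edgeR. In the comparisons with Casp8-/-Tnfr1-/- livers, 0 to 1 had an unadjusted edgeR p under 0.05. The results of the other tools were not read for this list.

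Mesenchymal and blood cell markers moved in the same livers. Of 10 stellate and mesenchymal genes *Ngfr*, a receptor of stellate cells and fibroblasts, was higher against each genotype (1.61, 1.76 and 1.21, edgeR, adjusted p = 0.00242, 0.00579 and 0.0209), at 21.9, 19.4 and 30.7 CPM beside 6.78 to 11.3 CPM in the other 8 livers. Without replicate 3 it was again called against each (1.41, 1.54 and 0.99), as was *Des*, the filament protein desmin (0.90, 1.08 and 0.83), and *Pdgfrb*, a pericyte receptor, was called against WT (0.50, adjusted p = 0.0469, edgeR). The 10 summed to 1270, 1054 and 5674 CPM in Casp8-/-Tnfr1-/- replicates 1 to 3 and to 821 to 1263 CPM elsewhere, so that replicate 3 alone stood far above. Of the 16 macrophage genes *Adgre1* (F4/80), *Marco* and *Timd4*, markers of resident macrophages, were lower in Casp8-/-Tnfr1-/- than in Casp8-/-Mlkl-/- livers (-2.03, -2.79 and -2.80, edgeR, adjusted p = 0.0309, 0.00868 and 0.0283), and were so without replicate 3 (-1.67, -2.54 and -2.37). In Casp8-/-Mlkl-/- livers 14 of the 16 log2 fold changes against WT were positive (median 0.67, beside 0.03 over all genes), but 0 were called. The 16 genes summed to 2320, 940 and 1021 CPM in Casp8-/-Mlkl-/- replicates 1 to 3 and to 719 to 984 CPM in WT. Replicate 1 of Casp8-/-Mlkl-/- alone thus stood far above WT in this sum. *Adgre1* was at 100 to 170 CPM in Casp8-/-Mlkl-/- livers, at 46.3 to 57.3 CPM in WT and at 13.1 to 40.2 CPM in Casp8-/-Tnfr1-/- livers. In Casp8-/-Tnfr1-/- against WT, *Marco* alone of *Adgre1*, *Marco* and *Timd4* was called, and only with Casp8-/-Tnfr1-/- replicate 3. Of 10 erythroid genes *Hba-a1* and *Hbb-bt* were lower against WT without replicate 3 (both -0.70, edgeR, adjusted p = 0.0445 and 0.0263). Replicate 3 went the other way: its 10 erythroid genes summed to 74689 CPM, against 24642 to 39687 CPM in the other livers. None of the 8 B lineage, 10 hepatocyte, 8 megakaryocyte and 10 striated muscle genes was called by edgeR in a comparison with Casp8-/-Tnfr1-/- livers, with 0 to 10 of a list at an unadjusted p under 0.05, the 10 being muscle genes with replicate 3. The part of these cells in the endothelial values was not tested.

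The genes most like *Stab2* and *Cdh5* over the livers changed with replicate 3. Over all 11 livers the 5 genes with the highest Pearson correlation of log2 CPM with *Stab2* were *Ptprb*, an endothelial phosphatase that acts on TIE2 (r = 0.962), *Adamtsl5* (0.960), *Tet1* (0.958), *Adarb1* (0.955) and *B3galnt1* (0.951). Over the 10 livers without replicate 3 they were *Ak3l2-ps* (0.967), *C6* (0.962), *Atp7b* (0.960), *Slc9a9* (0.950) and *Morc4* (0.948), so that no gene was in both sets. For *Cdh5* they were *Epb41l3* (0.925), *Flt4*, the receptor VEGFR3 (0.923), *Col20a1* (0.922), *Rnf157* (0.904) and *Snx25* (0.902) over 11 livers, and *Spic* (0.940), *Fam167a* (0.922), *Flt4* (0.913), *Adgre1* (0.911) and *Asb2* (0.903) over 10. *Flt4* was in both sets for *Cdh5*, and *Spic* and *Adgre1* are macrophage genes. These correlations were picked from 17243 genes over few livers of 4 genotypes that share depth and scaling, and are descriptions.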

How the data were processed

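Raw counts, RPKM and a width in bases were deposited per liver. Per the labels, single-end reads of 50 bases came from a TruSeq RNA v2 kit on a HiSeq4000, whereas the methods of the study give a kit that keeps strand and a NovaSeq; how strand was used in counting is not given in the sources used here. The authors aligned reads with GSNAP to GRCm38 and deposited, as counts, uniquely mapped reads on exons of each gene, without normalization. The RPKM values, which the authors deposited beside the counts, were not used in any test; the deposited width gave lengths. Of 52636 genes listed, 52489 are in GENCODE M21, which gave names and positions.

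Genes were kept by filterByExpr (minimum count 10), which left 17243, scaled by TMM and fitted by edgeR 4.0.16 (quasi-likelihood, genotype as the only factor, all 11 livers together) in R 4.3.3. The Benjamini-Hochberg adjustment ran over the whole table of tested genes, and an adjusted p under 0.05 made a call. Log2 CPM used a prior count of 2. Alternatives were DESeq2 1.42.0 (a likelihood ratio test for any difference among genotypes), limma 3.58.1 with voom, with and without quality weights per library, other scaling and filters, fits to the genotypes compared, a replicate block and leaving out each liver. The edgeR, limma and DESeq2 steps were tested on simulated data. Livers were taken as separate embryos: the labels number them as replicates, and the study counts fetal livers per genotype. The edgeR, limma and DESeq2 p values set a difference against the spread between these livers.

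The 10 genes and all lists were chosen with earlier results of these data known. Named are the 10 genes, the listed genes that were called, and for *Stab2* and *Cdh5* the 5 most correlated genes; *Casp8*, *Mlkl*, *Tnfrsf1a*, *Xist*, *Fcgr3*, *Nt5dc2*, *Pgf* and *Vegfa* were named outside this rule, after their values were seen. Shared sequence was counted as stretches of 50 bases in a gene's transcripts that transcripts of another gene also hold. Figures were drawn with matplotlib 3.10.9.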

Additional observations from a re-analysis of the deposited data

How the results depend on the processing

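Of the alternatives, limma-voom with quality weights per library moved the results most. Against WT, where the edgeR count of members called was 2, it called 5 (4 higher and 1 lower, beside 30.6% of all genes). DESeq2 (14% of all genes) and the fit without a filter on low counts called 3 each (*Flt1* added). Each of limma-voom without weights (4.68%), the fit to WT and Casp8-/-Tnfr1-/- livers alone and the fit with the replicate block called 1. Against Tnfr1-/- (0 called) the quality weights called 4 (25.1% of all genes) and DESeq2 3 (7.5%). Against Casp8-/-Mlkl-/- (0 called) they called 3 (15.7%) and DESeq2 1 (5.56%). In Casp8-/-Mlkl-/- against WT (0 called) the quality weights called 1 (6.04%). For any difference among genotypes (1 called) the quality weights called 5, beside 31.8% of all genes, and DESeq2 3, beside 10.3%. The fit without a filter on low counts called 2. DESeq2 size factors in edgeR, limma-voom (2.14% of all genes) and the replicate block each called 0. The causes were not tested. Leaving out 1 liver at a time, the counts were 0 to 3 against WT, 0 to 1 against Tnfr1-/-, 0 to 1 against Casp8-/-Mlkl-/-, 0 to 1 for any difference and 3 to 6 for the permutation test (5 with all livers). Against WT the count was 0 without WT replicate 1, 2 or 3, and 1 (*Fcgr2b*) without Tnfr1-/- replicate 1 or 2 or Casp8-/-Mlkl-/- replicate 2 or 3; over these 7 livers left out in turn, the adjusted p of *Pecam1* was between 0.0613 and 0.167, and without a WT liver that of *Fcgr2b* was between 0.0866 and 0.108 (edgeR, log2 fold change, Casp8-/-Tnfr1-/- against WT). *Fcgr2b* lost its call among the 4 genotypes without any 1 liver other than Casp8-/-Mlkl-/- replicates 1 and 2 (adjusted p from 0.0534 to 0.130).

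Changes of sign were found for values that were not called with all livers in edgeR; with quality weights *Stab2* was called lower in all 3 comparisons of Casp8-/-Tnfr1-/- livers (adjusted p = 0.0219, 0.00352 and 0.00336, limma). In Casp8-/-Tnfr1-/- against WT, the log2 fold change became -0.0439 for *Cdh5*, 0.0319 for *Kdr* and -0.36 for *Stab2* with quality weights. Leaving out 1 liver at a time, it ranged from -0.0323 to 0.41 for *Cdh5*, -0.0799 to 0.0506 for *Kdr*, -0.38 to 0.71 for *Stab2* and -0.0698 to 0.25 for *Clec4g*. In Casp8-/-Tnfr1-/- against Tnfr1-/-, the log2 fold change became 0.0518 for *Kdr* and -0.51 for *Stab2* with quality weights, 0.0405 for *Kdr* and -0.0616 for *Stab2* with the replicate block. Leaving out 1 liver at a time, it ranged from -0.17 to 0.13 for *Kdr* and -0.54 to 0.56 for *Stab2*. In Casp8-/-Tnfr1-/- against Casp8-/-Mlkl-/-, the log2 fold change became -0.15 for *Stab2* and 0.0797 for *Clec4g* with limma-voom, -0.56 for *Stab2* and 0.52 for *Clec4g* with quality weights, -0.0944 for *Stab2* with the replicate block. Leaving out 1 liver at a time, it ranged from -0.0187 to 0.21 for *Lyve1*, -0.72 to 0.39 for *Stab2* and -0.59 to 0.61 for *Clec4g*. In Casp8-/-Mlkl-/- against WT, the log2 fold change became -0.00229 for *Lyve1*, -0.47 for *Clec4g* and -0.0439 for *Fcgr2b* with quality weights, -0.0300 for *Clec4g* with limma-voom. Leaving out 1 liver at a time, it ranged from -0.0225 to 0.21 for *Lyve1*, -0.58 to 0.63 for *Clec4g* and -0.13 to 0.85 for *Fcgr2b*. In Tnfr1-/- against WT, the log2 fold change became 0.0199 for *Pecam1* and 0.21 for *Flt1* with the replicate block, 0.0247 for *Kdr* and 0.0192 for *Flt1* with upper quartile scaling, 0.000786 for *Kdr* with hemoglobin genes left out, 0.00174 for *Kdr* with no filter, 0.00210 for *Kdr* with a mean of at least 10 counts, 0.00773 for *Kdr* and 0.00199 for *Flt1* with only these genotypes fitted. Leaving out 1 liver at a time, it ranged from -0.21 to 0.000514 for *Pecam1*, -0.19 to 0.0710 for *Cdh5*, -0.16 to 0.14 for *Kdr*, -0.10 to 0.0748 for *Flt1*, -0.17 to 0.0510 for *Lyve1* and -0.33 to 0.00713 for *Clec4g*.

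Deviations from the genotype means were correlated between same-numbered livers of different genotypes: 5 of 15 pairs were above 0.1, with r from -0.297 to 0.275. With so few livers per genotype this cannot show whether a number marks a shared litter or batch, which the labels do not give. The block was used only as above. Depth was not the limit for these genes, each with at least 135 reads per liver, but 2 or 3 livers per genotype limit the precision, and replicate 3 widened the shared spread (common biological coefficient of variation of 33.3%).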
